A study of Mus musculus with 10 samples.

Results

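The 7 genes Cela1, Cela2a, Cela3a, Cela3b, Cpa1, Cpb1 and Rnase1, which encode the pancreatic elastases, the main pancreatic carboxypeptidases A and B and the pancreatic ribonuclease, were followed in RNA-seq of mouse pancreatic islets. They were found by their Ensembl gene IDs among the 52178 genes of the counts table, and all 7 passed the filter on low counts that left 15298 genes for testing. The 5 exercise libraries, numbered 6 to 10, were set against 5 sedentary libraries, numbered 1 to 5. The exercise libraries came from islets of male C57Bl/6 retired breeders that, after 3 days of getting used to the treadmill, had run 1 hour a day on 5 days of each of 2 weeks, at 17 cm/s on a 5 degree incline. The sedentary libraries came from islets of male mice of the same strain that are labelled sedentary. In both groups collagenase was injected into the pancreatic duct, and islets were picked by hand and placed in medium with 11 mM glucose and 10% FBS (serum). The labels do not tie libraries to animals, so p-values measure the spread between these libraries, which may be in part technical.

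All 7 proteins are made by acinar cells, the exocrine cells that surround the endocrine islets, and are secreted into the duct. Elastases are serine proteases that cut inside proteins next to small or hydrophobic residues, carboxypeptidase A removes aromatic and branched residues from the carboxyl end of peptides, and carboxypeptidase B removes lysine and arginine there. These proteases are stored as inactive proenzymes that trypsin activates in the gut, while ribonuclease 1 is secreted in active form and cuts RNA after pyrimidines. Acinar enzyme genes are transcribed under PTF1, a complex of Ptf1a with a common helix-loop-helix partner and Rbpj or Rbpjl that binds an E-box next to a TTTCCC-like box.

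The 250 bases before the RefSeq start of 5 of the genes are shown here (GRCm38.p6, each 5′ to 3′ on the strand of the gene). These windows hold, or lack, the letters of that box pair. Whether the letters bear on the levels of the genes was not tested. Capitals mark CACCTG or its reverse complement CAGGTG, the form of the E-box searched, and TTTCCC or its reverse complement GGGAAA.
Cela1, chr15:100687921-100688170 (− strand): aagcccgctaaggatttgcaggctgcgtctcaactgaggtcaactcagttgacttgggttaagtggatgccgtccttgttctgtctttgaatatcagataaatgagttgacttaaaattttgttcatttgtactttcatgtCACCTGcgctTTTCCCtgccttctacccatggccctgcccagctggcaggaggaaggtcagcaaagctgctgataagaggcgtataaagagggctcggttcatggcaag
Cela3a, chr4:137409792-137410041 (− strand): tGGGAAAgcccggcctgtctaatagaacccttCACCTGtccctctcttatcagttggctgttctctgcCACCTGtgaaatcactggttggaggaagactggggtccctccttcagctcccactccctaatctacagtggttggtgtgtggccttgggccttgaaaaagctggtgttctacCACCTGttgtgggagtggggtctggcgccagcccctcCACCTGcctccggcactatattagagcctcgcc
Cela3b, chr4:137430521-137430770 (− strand): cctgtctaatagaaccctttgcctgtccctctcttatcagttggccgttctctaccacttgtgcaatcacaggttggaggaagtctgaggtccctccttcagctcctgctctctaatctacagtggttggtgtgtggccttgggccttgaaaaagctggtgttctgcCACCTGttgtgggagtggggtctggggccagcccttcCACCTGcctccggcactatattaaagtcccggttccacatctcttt
Cpa1, chr6:30638968-30639217 (+ strand): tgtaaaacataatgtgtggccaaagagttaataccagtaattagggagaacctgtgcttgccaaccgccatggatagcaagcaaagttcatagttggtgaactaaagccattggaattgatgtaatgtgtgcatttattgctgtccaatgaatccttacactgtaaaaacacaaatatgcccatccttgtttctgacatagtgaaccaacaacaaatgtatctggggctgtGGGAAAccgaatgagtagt
Rnase1, chr14:51146768-51147017 (− strand): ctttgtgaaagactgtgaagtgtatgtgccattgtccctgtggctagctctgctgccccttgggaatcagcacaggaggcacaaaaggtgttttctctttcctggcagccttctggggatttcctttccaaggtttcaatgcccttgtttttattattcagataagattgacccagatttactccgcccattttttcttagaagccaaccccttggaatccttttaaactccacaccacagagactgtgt
All 7 genes matched a RefSeq promoter. CANNTG, the general E-box of which CACCTG is 1 form, was found on either strand before 6 of the 7 genes and in 66.2% of 32851 promoters of the same length. CACCTG was found before 5 of 7 genes and in 17.2% of promoters, TTTCCC before 4 of 7 and in 21.9%, and TATAAA before 1 of 7, Cela1, and in 12.4%. CANNTG and TTTCCC without overlap and with at most 30 bases between them stood before Cela1, Cela2a, Cela3a and Cpa1, against 5.34% of promoters. In Cela1 the 2 boxes were 4 bases apart, and in Cpa1 a CAAATG, left in lower case, stood 13 bases from GGGAAA. The Rnase1 window held neither CANNTG nor TTTCCC. A match is a description of the letters and shows no binding.

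Cela3a and Cela3b, both on chromosome 4, are near copies. Of 849 aligned coding positions, gaps included, 756 were identical (89.0%), and the 250-base windows before them were identical at 217 of 263 aligned positions (82.5%). The pair differed at 51 coding positions outside gaps. Among 60-base stretches without gaps, the one with the most differences is shown. Stretches holding any of the 42 gap positions of the alignment were not considered. Capitals mark the 10 positions where the pair differs in it, and positions are counted from 1 at the first coding base.
Cela3a coding bases 220 to 279: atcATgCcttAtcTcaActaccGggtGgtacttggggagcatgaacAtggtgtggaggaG
Cela3b coding bases 220 to 279: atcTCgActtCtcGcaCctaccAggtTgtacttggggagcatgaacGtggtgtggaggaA
Of the 928 stretches of 31 bases in Cela3a, 425 (45.8%) also occurred in Cela3b, where they made up 26.0% of 1635. The estimated counts of both genes were not whole in any of the 10 libraries, while their sum was whole in 10 of 10 (tolerance 0.001), so that reads were divided between them. Cela3a took between 0.0137 and 0.0345% of the summed counts of the pair. Its values below are therefore uncertain. Cpb1 had counts that were not whole in 10 and Cela2a in 7 libraries, with no single gene found that held the rest.

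Sedentary 1 and 2 stood apart from the other libraries in their endocrine and intestinal transcripts. A list of 13 small intestinal genes, among them Apoa4, an apolipoprotein of chylomicrons, and Alpi, the intestinal alkaline phosphatase, had 13 of 13 tested members called lower in exercise, where 11.4% of all tested genes were called lower. Its summed level (CPM is the count relative to library size, scaled by trimmed mean of M-values factors, TMM) was 285 to 804 CPM in exercise and 3099 to 20515 CPM in sedentary libraries, with 13437 CPM in sedentary 1 and 20515 CPM in sedentary 2. The 8 stomach genes summed to 4.19 to 12.6 CPM in exercise and 16.8 to 5482 CPM in sedentary libraries, where sedentary 1 had 5482 CPM and the other 4 had at most 56.3 CPM. Of 2 tested members 1 (Pgc) was called lower by edgeR and 0 by DESeq2 and limma-voom, and Gif, encoding intrinsic factor, was listed at 0 in all exercise libraries. The 10 beta cell genes, among them Ins1 and Ins2, summed to 134759 to 190979 CPM in exercise and 8151 to 194263 CPM in sedentary libraries, where sedentary 1 had 8151 CPM and sedentary 2 had 37396 CPM, with 0 of 10 called by edgeR (1 higher at an unadjusted p under 0.05, 0 called by DESeq2 and limma-voom). By edgeR 0 of the 7 genes of alpha, delta and PP cells, 0 of 5 endothelial, 0 of 5 stromal and 0 of 5 immune genes were called. At an unadjusted p under 0.05 there were 1 higher stromal and 1 lower immune gene, and of these 4 lists DESeq2 called 1 immune gene lower and limma-voom called 0 genes. Of 10 duct genes 4 were lower and 0 higher by edgeR. Mitochondrially encoded genes took 1.84 to 2.88% of counts in exercise and 2.84 to 7.75% in sedentary libraries. The part of these differences in the results below was not tested, and the main results are given with and without sedentary 1 and 2.

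The 7 genes together took a larger share of the counts in exercise libraries. The share was 9.77, 8.13, 7.86, 12.4 and 7.45% in exercise 6 to 10, against 7.08, 3.50, 5.49, 5.82 and 3.99% in sedentary 1 to 5. Every exercise library lay above every sedentary library, though exercise 10 and sedentary 1 were close. The means were 9.13 ± 2.05% in exercise and 5.17 ± 1.44% in sedentary libraries (SD, n = 5 each), a difference of 3.95 percentage points that was not tested, since it is a sum over the genes, and that was 4.03 points without sedentary 1 and 2 and 6.20 points on TMM-scaled library sizes. Counting error was small beside this spread, with 95% Wilson intervals at most 0.0134 percentage points to either side. Elastases made up the largest part, with 5.13 ± 1.16% in exercise and 2.77 ± 0.710% in sedentary libraries. The 2 carboxypeptidases took 3.53 ± 0.839% in exercise and 2.06 ± 0.637% in sedentary libraries, and Rnase1 took 0.462 ± 0.0726% in exercise and 0.342 ± 0.100% in sedentary libraries. In bulk libraries, more acinar cells and more enzyme RNA per acinar cell cannot be told apart.

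**Figure D1:**
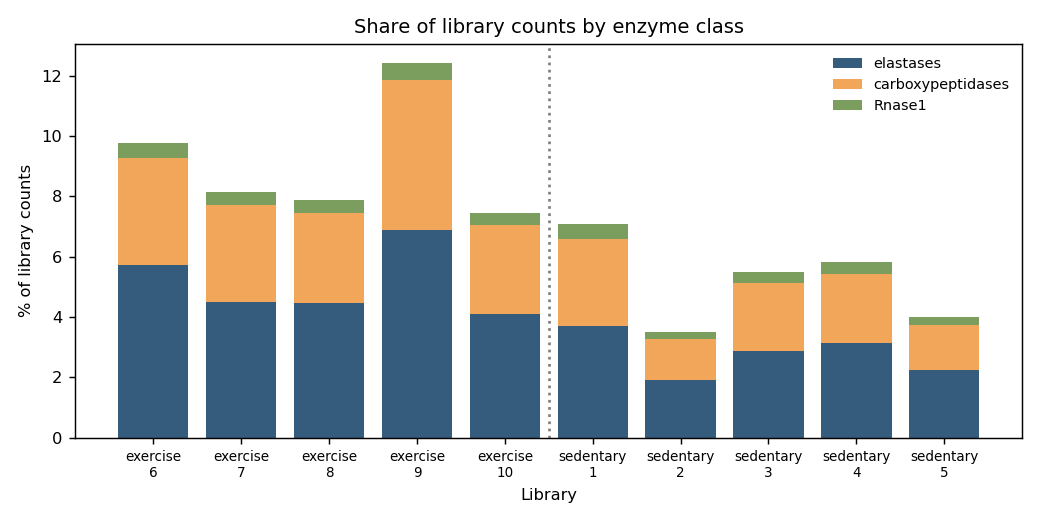
Share of all counts of each library (%, vertical axis) taken by the elastases, the carboxypeptidases and Rnase1, stacked, for exercise libraries 6 to 10 and sedentary libraries 1 to 5. The stacks reach 7.45 to 12.4% in exercise and 3.50 to 7.08% in sedentary libraries.

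Of the 7 genes, 6 were among the most abundant transcripts of these islet preparations. By mean level over the 10 libraries Cela2a ranked 7, Cpa1 9, Cela1 11, Cpb1 12, Cela3b 23 and Rnase1 27 among 15298 tested genes, and Cela3a ranked 13705. Per kilobase of coding sequence, as CPM divided by coding length, the order was Cela2a, Cela1, Cpa1, Cpb1, Rnase1, Cela3b and Cela3a. Cela2a had a level of 38202 CPM per coding kb in exercise and 16151 in sedentary libraries. Cela1 had 26040 in exercise and 10152 in sedentary libraries, Rnase1 had 12115 in exercise and 6829 in sedentary libraries, and Cela3b had 11062 in exercise and 4290 in sedentary libraries on the same scale. The order of neighbours held in 9 or 10 of the 10 libraries, except that Cpb1 was above Rnase1 in 4 of 10. This order holds for coding length only, which leaves out the untranslated ends of transcripts. Coding length was 447 of 992 bases of the longest coding transcript for Rnase1, 807 of 926 for Cela3b and 1245 of 2718 for Cpb1. The order by full transcript length was not determined.

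Cela1 and Cela3b rose in exercise libraries. Of the 7 genes, 2 were called higher and 0 lower by edgeR's quasi-likelihood test at an adjusted p of 0.05, over a background in which 2.44% of all tested genes were called higher and 11.4% lower. The median log2 fold change, exercise over sedentary, was 1.24 over the 7 genes and -0.00072 over all tested genes. For 4 of the 7 every exercise library lay above every sedentary library, as for 6.24% of tested genes.

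Cela3b (ENSMUSG00000023433), an elastase whose human counterpart was also called protease E, had the smallest adjusted p. It had 11567, 7119, 6494, 14027 and 5429.6 CPM in exercise 6 to 10, against 4702, 2458, 3378, 3965 and 2806 CPM in sedentary 1 to 5. The groups did not overlap, and exercise 10 was the lowest exercise library. Cela3b averaged 8927 ± 3688 CPM in exercise and 3462 ± 899 CPM in sedentary libraries (SD, n = 5 each) and rose 2.58-fold (log2 fold change 1.37 ± 0.34, SE; adjusted p = 0.0276 by edgeR). The call was lost when sedentary 2 or 5 or exercise 6, 7 or 9 was left out (edgeR adjusted p = 0.0603, 0.0552, 0.0661, 0.0546 and 0.0575, in that order).

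Cela1 (ENSMUSG00000023031), elastase 1, had 22974, 16078, 16096, 35846 and 12905 CPM in exercise 6 to 10, against 11712, 5741, 8045, 8881 and 6126 CPM in sedentary 1 to 5. No exercise library was below the highest sedentary library, sedentary 1. Cela1 averaged 20779.7 ± 9190.5 CPM in exercise and 8101 ± 2404 CPM in sedentary libraries (SD, n = 5 each) and rose 2.57-fold (log2 fold change 1.36 ± 0.38, SE; adjusted p = 0.0409 by edgeR). Its call was lost without sedentary 2, 3 or 5 or exercise 6, 7, 8 or 9 (edgeR adjusted p = 0.0876, 0.0646, 0.0810, 0.0837, 0.0744, 0.0716 and 0.0783, in that order).

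Cela2a (ENSMUSG00000058579), the most abundant of the 7, had 33253, 24906, 23554, 53181 and 20395 CPM in exercise 6 to 10, against 18445, 9391, 12689.8, 15155 and 9973 CPM in sedentary 1 to 5. The groups did not overlap. It averaged 31058 ± 13249 CPM in exercise and 13131 ± 3758 CPM in sedentary libraries (SD, n = 5 each), which did not pass (log2 fold change 1.24 ± 0.39, SE; adjusted p = 0.0593 by edgeR). Cela3a (ENSMUSG00000078520), the near copy of Cela3b, had estimated counts of 42.6, 36.4, 24.9, 63.7 and 24.0 in exercise 6 to 10, against 27.1, 6.58, 8.35, 19.7 and 9.35 in sedentary 1 to 5. Only exercise 6, 7 and 9 were above sedentary 1 on the TMM-scaled level. It had 2.30 ± 1.16 CPM in exercise and 0.749 ± 0.520 CPM in sedentary libraries (SD, n = 5 each), and the log2 fold change was 1.61 ± 0.49 (SE), with an adjusted p = 0.0535 by edgeR.

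Neither carboxypeptidase passed. Cpa1 (ENSMUSG00000054446), carboxypeptidase A1, had 27337, 20052, 17710.5, 42891 and 16209 CPM in exercise 6 to 10, against 15520.4, 7394, 11199, 12071 and 7473 CPM in sedentary 1 to 5. The groups did not overlap, with exercise 10 just above sedentary 1. Cpa1 averaged 24839.8 ± 10958 CPM in exercise and 10731 ± 3417 CPM in sedentary libraries (SD, n = 5 each), and its log2 fold change was 1.21 ± 0.40, with an adjusted p = 0.0658 by edgeR. Cpb1 (ENSMUSG00000011463), carboxypeptidase B1, had 14508, 14463, 13339, 31515 and 11563 CPM in exercise 6 to 10, against 11887, 5153, 7693, 8378 and 5019 CPM in sedentary 1 to 5. Exercise 9 stood far above the other exercise libraries, and exercise 10 lay below sedentary 1. Cpb1 averaged 17077 ± 8159 CPM in exercise and 7626 ± 2812.5 CPM in sedentary libraries (SD, n = 5 each), a log2 fold change of 1.16 ± 0.40 with an adjusted p = 0.0744 by edgeR.

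Rnase1 (ENSMUSG00000035896), the pancreatic ribonuclease, had the smallest fold change of the 7. It had 6158, 4486, 4208, 8384 and 3841 CPM in exercise 6 to 10, against 4525, 2056, 2915, 3483 and 2284 CPM in sedentary 1 to 5. The groups overlapped, and only exercise 6 and 9 were above sedentary 1. Rnase1 averaged 5415 ± 1882 CPM in exercise and 3053 ± 994.5 CPM in sedentary libraries (SD, n = 5 each), a log2 fold change of 0.83 ± 0.32 with an adjusted p = 0.104 by edgeR.

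**Figure D2:**
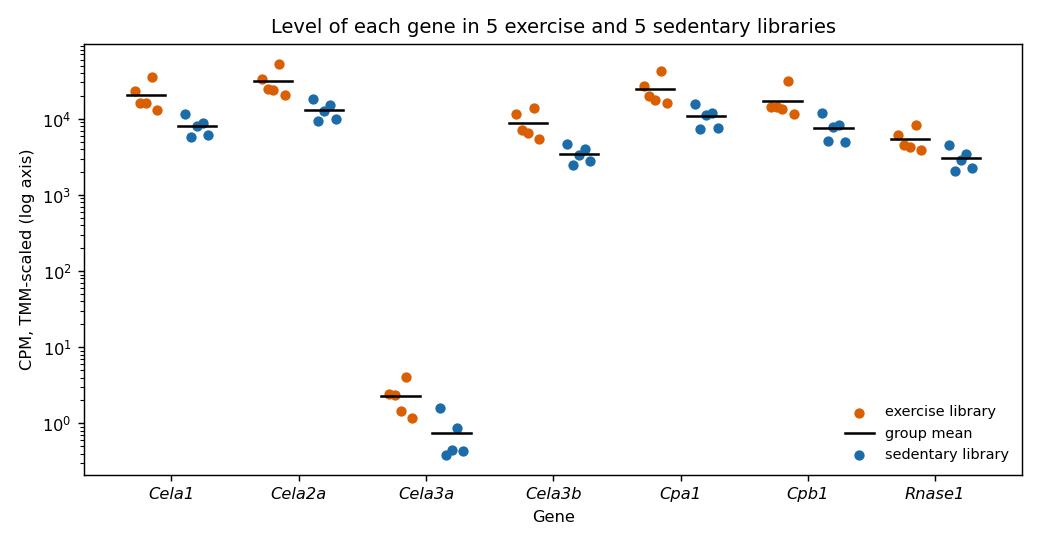
Level of each gene (CPM on TMM-scaled library sizes, log axis) with 1 point per library and a line at the group mean, exercise on the left and sedentary on the right of each pair. The groups do not overlap for Cela1, Cela2a, Cela3b and Cpa1.

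The TMM-scaled levels of the 7 genes varied together between libraries of the same group. On this scale all 7 were highest in exercise 9 and lowest in exercise 10 within the exercise group, and all were highest in sedentary 1 within the sedentary group. The lowest sedentary library was sedentary 2 for 6 genes and sedentary 5 for Cpb1. Within the exercise group the highest library was 2.18 times (Rnase1) to 3.52 times (Cela3a) the lowest. Exercise 9 also had the lowest scaling factor, 0.669 in a range of 0.669 to 1.20, and this scaling raised its CPM: by library total alone Cpb1 had 21071 CPM in exercise 9 and between 12239 and 13496 CPM in the other exercise libraries. By library total Cela3b was highest in exercise 6, at 9761 CPM, against 9379 CPM in exercise 9. Cpa1 and Rnase1 were then lowest in exercise 8 among exercise libraries, and Cpb1 was lowest in sedentary 2 among sedentary libraries. Over the 10 libraries the SD of the log2 ratio between 2 of the genes was smallest for Cela2a to Cpa1, at 0.0703, and reached 0.283, for Cela3b to Rnase1, among the 15 pairs without Cela3a. It lay between 0.449 and 0.606 in the 6 pairs with the scarce Cela3a.

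Without sedentary 1 and 2, the libraries highest in intestinal genes, Cela1, Cela2a, Cela3a and Cela3b passed (edgeR adjusted p = 0.0303, 0.0453, 0.0240 and 0.0243, in that order), over a background of 4.1% of 15692 tested genes called higher. Their log2 fold changes were then 1.46, 1.33, 1.97 and 1.42. In the same 8 libraries Cpa1, Cpb1 and Rnase1 had log2 fold changes of 1.30, 1.31 and 0.93 (edgeR adjusted p = 0.0527, 0.0520 and 0.0667).

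Of 40 other acinar genes, 20 were called higher, 2 lower (Gata4 and Aqp8) and 18 did not pass by edgeR, with a median log2 fold change of 1.19, where 2.44% of all tested genes were called higher and 11.4% lower. Of 21 other acinar enzymes 10 rose and 0 fell. Amy2a5, a pancreatic amylase, had 61915 ± 32905 CPM in exercise and 20699 ± 6734 CPM in sedentary libraries (edgeR adjusted p = 0.0469), and Ctrb1, chymotrypsinogen B1, had 30386 ± 12741 CPM in exercise and 11229.9 ± 2787 CPM in sedentary libraries (edgeR adjusted p = 0.0370). The amylase copies Amy2a2, Amy2a3 and Amy2a4, which are not among the 40, each had the same mean of 29041 CPM over all libraries. How reads were divided among the amylase genes was not determined, so the Amy2a5 value is uncertain. The trypsinogen gene Prss2 also rose (log2 fold change 1.32, edgeR adjusted p = 0.0427), and the lipase gene Pnlip had a log2 fold change of 1.25 (edgeR adjusted p = 0.0606). Of 19 granule, membrane and regulatory genes 10 rose and 2 fell. Zg16 and Sycn, proteins of the zymogen granule, and Gp2, its main membrane glycoprotein, rose by log2 fold changes of 1.15, 1.47 and 1.33, while Dmbt1 had -0.17 (edgeR adjusted p = 0.0418, 0.0269, 0.0379 and 0.801, in that order). The PTF1 subunit genes Ptf1a and Rbpjl, named after their values were seen, rose too: Ptf1a had 23.7 ± 12.5 CPM in exercise and 5.63 ± 2.66 CPM in sedentary libraries (log2 fold change 2.07 ± 0.42, SE; adjusted p = 0.0117 by edgeR), and Rbpjl had a log2 fold change of 1.24 (edgeR adjusted p = 0.0380). The other transcription factor genes of the list did not rise. Bhlha15, Nr5a2 and Gata4 had log2 fold changes of 0.17, -1.04 and -3.48 (edgeR adjusted p = 0.622, 0.191 and 0.00971, in that order). Nr5a2 and Gata4 were highest in sedentary 2 (38.4 and 172 CPM) and Aqp8 in sedentary 1 (30.3 CPM), where intestinal genes were also abundant. Bhlha15 was highest in sedentary 4. The relation of these genes to the intestinal genes was not tested.

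Set against these 40 acinar genes, the differences of the 7 were small, and Rnase1 had the lowest value. With library size taken as the summed counts of the 40 genes, 0 of the 7 passed edgeR's test, and 0 had an unadjusted p under 0.05, over a background of 0.124% of tested genes called higher and 64.3% called lower, with a median log2 fold change of -1.23. The log2 fold changes relative to the other acinar genes were 0.04 ± 0.22 SE for Cela1, -0.07 ± 0.21 for Cela2a, 0.37 ± 0.48 for Cela3a, 0.05 ± 0.25 for Cela3b, -0.09 ± 0.21 for Cpa1, -0.12 ± 0.23 for Cpb1 and -0.44 ± 0.26 for Rnase1. Their edgeR adjusted p lay between 0.141 (Rnase1) and 0.862 (Cela3b), and 0 of 7 passed without sedentary 1 and 2.

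**Figure D3:**
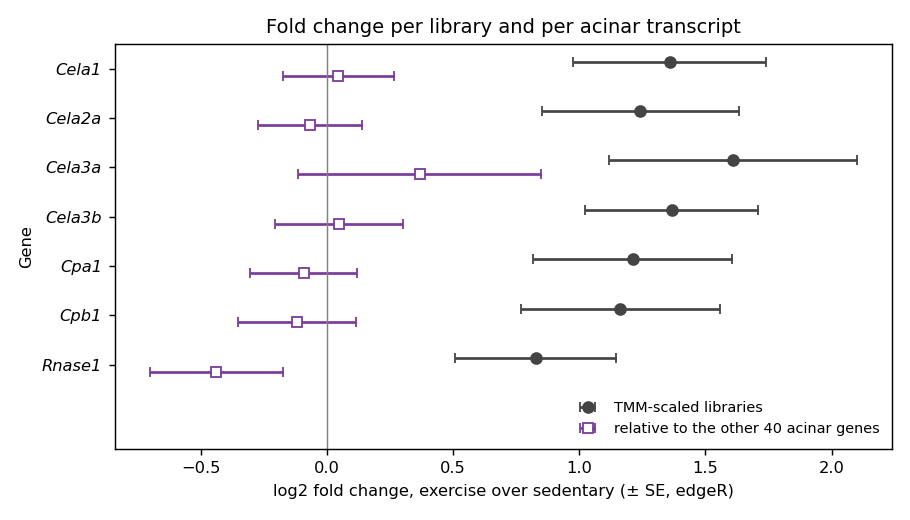
Log2 fold change, exercise over sedentary (horizontal axis, bars ± SE, edgeR), of each gene on TMM-scaled libraries (filled circles) and relative to the other 40 acinar genes (open squares). The first lie between 0.83 and 1.61 and the second between -0.44 and 0.37.

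Per 1000 counts of the other acinar genes Rnase1 had 26.3, 27.1, 26.5, 22.5 and 28.6 counts in exercise 6 to 10, against 36.7, 32.4, 34.1, 38.4 and 36.0 counts in sedentary 1 to 5. Every exercise library was below every sedentary library, as for 44.4% of tested genes on this scale, while 0.118% had every exercise library above. The means were 26.2 ± 2.23 in exercise and 35.5 ± 2.33 in sedentary libraries (SD, n = 5 each). An exact two-sided permutation test of the log2 ratio over the 252 divisions of the libraries, chosen after the data were seen and run on all tested genes, gave a difference of -0.44 for Rnase1 with p = 0.00794, the smallest it can give, and an adjusted p of 0.0178. By this test 56.8% of tested genes were lower and 0.183% higher relative to the acinar genes, and the adjusted value passes because so many genes share that smallest p. The other 6 genes did not pass it (exact permutation adjusted p between 0.123 and 0.666). Since the groups did not overlap, leaving out libraries could not move this p from its smallest value and was no test of the call. The difference was -0.47 without sedentary 1 and 2 and lay between -0.47 and -0.39 with 1 library left out. The call was lost when the 5 most abundant acinar genes were left out of the sum (difference -0.26, exact permutation adjusted p = 0.0572). Without those 5 genes, Cela1 (difference 0.22) and Cela3b (0.23) passed toward exercise (exact permutation adjusted p = 0.0218 each). Among the 40 other acinar genes the same permutation test called 9 lower and 3 higher. The 9 were Aqp8, Bhlha15, Cckar, Dmbt1, Gata4, Nr5a2, Reg1, Spink1 and Try10, and the 3 were Amy2a5, Klk1 and Ptf1a. Of the 9, Aqp8 and Reg1 had their highest CPM in sedentary 1 and Dmbt1, Gata4 and Nr5a2 in sedentary 2, the libraries highest in intestinal genes. Bhlha15 was highest in sedentary 4, and Cckar, Spink1 and Try10 in exercise 9.

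For the other 6 the groups overlapped on this scale. Cela1 had 97.8 ± 2.14 counts per 1000 in exercise and 94.8 ± 2.82 in sedentary libraries, and Cela2a had 147 ± 4.38 in exercise and 154 ± 8.22 in sedentary libraries (SD, n = 5 each). Cela3b had 42.3 ± 4.40 in exercise and 40.9 ± 2.88 in sedentary libraries, Cpa1 had 117 ± 3.98 in exercise and 125 ± 7.56 in sedentary libraries, and Cpb1 had 80.8 ± 10.6 in exercise and 87.8 ± 7.43 in sedentary libraries. Cela3a had 0.0107 ± 0.00218 in exercise and 0.00816 ± 0.00320 in sedentary libraries. The spread of Cpb1 in exercise rested on exercise 6, at 61.9. Against Cela1 itself, Rnase1 had 268, 279, 261, 234 and 298 counts per 1000 Cela1 counts in exercise 6 to 10, and 386, 358, 362, 392 and 373 in sedentary 1 to 5. Against Cela2a, Cela3b and Cpa1 the groups did not overlap either, but against Cpb1 and Cela3a they did. Cpb1 had 2.36 to 3.76 counts per Rnase1 count in exercise and 2.20 to 2.64 in sedentary libraries. Of the summed counts of the 7 genes, Rnase1 made up 5.12 ± 0.364% in exercise and 6.60 ± 0.214% in sedentary libraries, and Cela1 made up 19.1 ± 0.709% in exercise and 17.6 ± 0.405% in sedentary libraries.

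**Figure D4:**
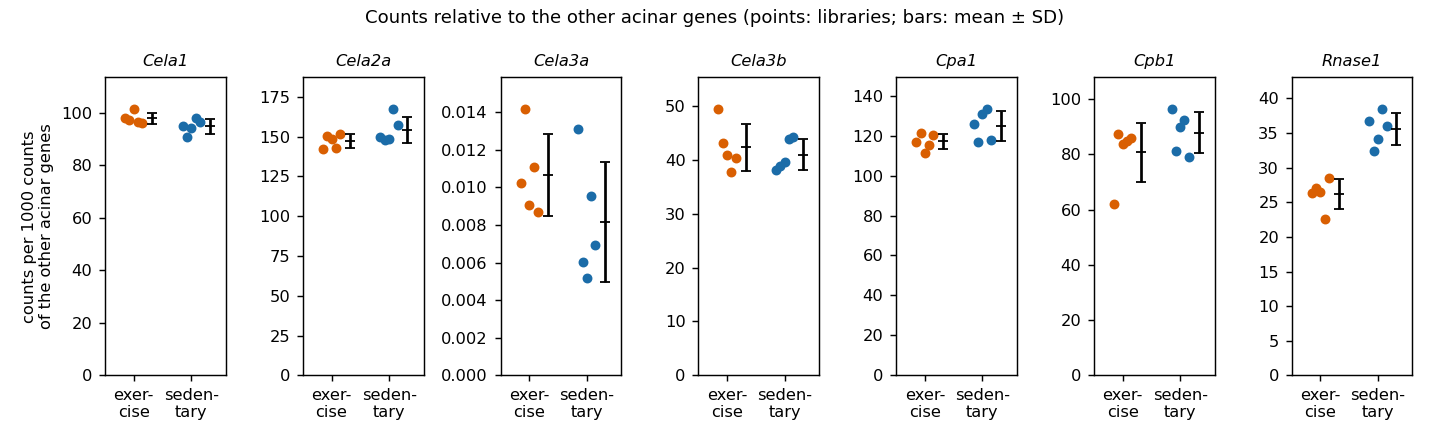
Counts of each gene per 1000 counts of the other 40 acinar genes, 1 point per library with the group mean ± SD, exercise left of sedentary and each panel on its own axis from 0. Rnase1 lies between 22.5 and 28.6 in exercise and between 32.4 and 38.4 in sedentary libraries, and exercise 6 is low for Cpb1.

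The genes that act on these enzymes did not move as 1 group. Of 14 tested inhibitors and activators, 3 rose, 4 fell and 7 did not pass by edgeR, where 2.44% of all tested genes were called higher and 11.4% lower. The 3 that rose were the activators and proteases Ctrb1, Prss2 and Ctrc, of which the first 2 are given above. The 4 that fell, Serpinb1a, an inhibitor of elastase-like proteases, Tmprss15, the enteropeptidase that activates trypsinogen, and the alpha-1 antitrypsin genes Serpina1b and Serpina1e, were named after their values were seen. Tmprss15 had 3.30 ± 2.73 CPM in exercise and 42.3 ± 31.1 CPM in sedentary libraries (edgeR adjusted p = 0.00971), and was highest in sedentary 1, where intestinal genes were also abundant, and its relation to them was not tested. Serpinb1a had 36.2 ± 12.7 CPM in exercise and 130 ± 104 CPM in sedentary libraries, and was highest in sedentary 2. Serpina1b and Serpina1e were scarce, at 0.322 and 0.216 CPM in exercise and 2.49 and 3.33 CPM in sedentary libraries. Both were highest in sedentary 1. The relation of these 3 genes to the intestinal genes was not tested either. The trypsin inhibitor gene Spink1 had 239 ± 115 CPM in exercise and 136 ± 39.6 CPM in sedentary libraries (edgeR adjusted p = 0.116), and Prss3, a trypsinogen gene, had 128 ± 51.7 CPM in exercise and 82.8 ± 70.5 CPM in sedentary libraries (edgeR adjusted p = 0.377). Rnh1, the cytosolic inhibitor of ribonuclease 1, had 63.3 ± 12.9 CPM in exercise and 62.4 ± 6.10 CPM in sedentary libraries (log2 fold change 0.02, edgeR adjusted p = 0.934). Lxn, the inhibitor of carboxypeptidase A, had 7.35 ± 0.519 CPM in exercise and 7.66 ± 0.823 CPM in sedentary libraries (log2 fold change -0.06, edgeR adjusted p = 0.771).

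Of 10 tested carboxypeptidase genes outside the 7, 1 was called higher and 0 lower by edgeR, over the same background (1 lower at an unadjusted p under 0.05, 0 lower by DESeq2 and limma-voom). Cpe, which trims prohormones such as proinsulin in endocrine granules, had 2116 ± 241 CPM in exercise and 1268 ± 902 CPM in sedentary libraries (edgeR adjusted p = 0.381). Cpd and Cpq had log2 fold changes of 0.24 and 0.49 (edgeR adjusted p = 0.332 and 0.343). Of 4 tested genes of the ribonuclease A family outside Rnase1, edgeR called 0 higher (1 at an unadjusted p under 0.05, 1 by DESeq2, 0 by limma-voom and 1 with its quality weights) and 1 lower. The gene called lower was Ang4, which is made by intestinal Paneth cells (edgeR adjusted p = 0.0118). Rnase4 had 239.9 ± 20.7 CPM in exercise and 157 ± 80.9 CPM in sedentary libraries (edgeR adjusted p = 0.266), Ang, angiogenin, had 36.1 ± 4.98 CPM in exercise and 22.3 ± 6.86 CPM in sedentary libraries (edgeR adjusted p = 0.0637), and Rnase6 had a log2 fold change of -1.32 (edgeR adjusted p = 0.175).

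The genes closest in pattern to each of the 7 were ranked by likeness. Only tested genes with a symbol were ranked, without predicted, clone-based and mitochondrially encoded genes. Likeness was the SD of the log2 ratio of TMM-scaled CPM over the 10 libraries, which share their library scaling. The closest gene to Cela1 was Pdia2 (SD 0.0637), a pancreatic protein disulfide isomerase, followed by Prss2 (0.0731) and Cela2a (0.0756). Among the 3 closest to Cela2a were Cpa1 (0.0703) and Cela1, and closest to Cpa1 were Cela2a, Prss2 (0.0789) and Pdia2 (0.0807). Cela3b was most like the chymotrypsin genes Ctrb1 (0.0659) and Ctrl (0.0756), then Cela1 (0.107). Cpb1 was most like 2 lipase genes, Cel (0.0598) and Pnlip (0.0795), then Amy2a3 (0.0943), a near copy of other amylase genes. For the scarce Cela3a the closest genes were much looser, Stc2 (0.269), Cuzd1 (0.306) and Pdia2 (0.331). Rnase1 was most like Try10 (0.0828), a trypsinogen gene, then Pnliprp1 (0.182) and Tmed6 (0.184). Of the 20 genes closest to Rnase1, 8 were on the acinar lists, against 13 to 18 for each of the other 6. These counts depend on how the lists were written, since the amylase copies Amy2a2, Amy2a3 and Amy2a4 are not on them. The median SD over the ranked genes lay between 0.788 and 1.17.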

How the data were processed

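Islet RNA, purified on small columns, went into stranded mRNA libraries, per the labels' protocols. The deposited table holds the authors' estimated counts per Ensembl gene and library. They were made with fastp and kallisto, per the submitters' processing notes. For the versions, the genome build, the annotation and the step from transcripts to genes, nothing is given in the sources used here. The table's values were fractional in 12.6% of cases (tolerance 1e-06) and were rounded for testing. Library totals lay between 15081768 and 23222563 counts, and intervals from counts cover counting error only. No 2 libraries agreed within sampling noise: chi-square per degree of freedom was at least 8.95 in the 45 pairs. No batch or day is given in the labels.

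Genes were tested in R 4.3.3 with edgeR 4.0.16 (quasi-likelihood test, TMM factors, default filter with a minimum count of 10 and a minimum total of 15), adjusted by Benjamini-Hochberg over all tested genes, with a threshold of 0.05. A second fit set library size to the summed counts of 40 acinar genes other than the 7. The permutation test used log2 ratios to that sum with 0.5 added to counts. Log2 CPM for likeness had a prior count of 2. The test was checked on simulated data. DESeq2 1.42.0, limma-voom (limma 3.58.1), other scalings, other filters and leaving out libraries were alternatives. Coding sequences and lengths were read from GENCODE transcripts of GRCm38 and promoters from RefSeq tables. The genes, the gene lists and the tests were chosen with earlier results of these data known. Named genes were all 7, the 4 most abundant of each list for which genes are named, and for each of the 7 the 3 genes of most constant ratio. All other genes in the text were named after their values were seen. The values of 1 gene that this rule names are not reported here, and counts include it.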

Additional observations from a re-analysis of the deposited data

Results flagged for a closer look

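In 30 groups of 5 libraries (each gene's CPM and its ratio to the other acinar genes, and the summed share of counts), 2 held a library far from the others, with a gap over the range of the group above 0.710, Dixon's 95% critical value for 5 samples. Chance flags about 1 in 20 such groups. Both concern Cpb1, whose counts were not whole in any library, in the exercise group. Its level in exercise 9 was 31515 CPM, where the nearest other exercise library had 14508 CPM. Its ratio in exercise 6 was 61.9 counts per 1000 counts of the other acinar genes, where the nearest other exercise library had 84.0. Without exercise 9 the log2 fold change of Cpb1 was 0.87, and without exercise 6 it was 1.22, against 1.16 with all libraries.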

How the results depend on the processing

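All 7 log2 fold changes stayed above 0 under every scaling, filter, tool and left-out library run, but how many passed did not hold. Of the 7 genes, 2 passed with edgeR, 4 with upper-quartile factors, 5 with acinar genes out of the scaling, 1 with no filter, 4 with robust edgeR, 7 with DESeq2, 1 with limma-voom, 7 with limma-voom and quality weights and 4 without sedentary 1 and 2. Between 0 and 3 passed with 1 library left out. Of all tested genes 2119 passed, against 4567 with library totals alone, 3739 with DESeq2, 516 with limma-voom and between 951 and 3610 with 1 library left out. The share of lower calls was 82.4%, against 96.5% with library totals and 43.7% with acinar genes out of the scaling, which moved the median of all genes by -0.34 and 0.23 on the log2 scale, and upper-quartile factors moved it by 0.11. Relative to the other acinar genes 0 of 7 passed with edgeR, in the main fit, in each alternative run and with 1 library left out. With the permutation test 1 passed, and 2 passed with TMM over the acinar genes (Cela1, with a difference of 0.17, and Rnase1). By the permutation test 2 passed without the 5 most abundant acinar genes, 1 without sedentary 1 and 2, and 1 with any 1 library left out. With TMM over the acinar genes, differences changed sign to 0.0619 for Cela2a, 0.0377 for Cpa1 and 0.0121 for Cpb1 (0.0636, 0.0377 and 0.0022 in the permutation test). Without the 5 most abundant they changed sign to 0.11, 0.0825 and 0.0636 (0.11, 0.0880 and 0.0524 in the permutation test). Without sedentary 1 and 2 Cela3b was at -0.0076 (-0.0118 in the permutation test), and with 1 library left out it lay between -0.0136 and 0.0867, below 0 without exercise 6 (-0.0124 in the permutation test). The cause of these changes was not tested. The difference in the share of counts was 3.95 points, 6.20 on TMM-scaled library sizes and between 3.13 and 4.43 with 1 library left out. No paired analysis was possible because replicate numbers run from 1 to 10 with none shared by the groups. Among the 7, depth limits Cela3a most, at 6.58 to 63.7 estimated counts in a library.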
